A study of Mus musculus with 477 samples.

Results

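Milk carries proteins that act on microbes and on dying cells, and 6 genes for such proteins were followed here in mouse mammary cells: Ltf, Lcn2, Pigr, Wfdc18, Spp1 and Mfge8. The 6 were chosen by name for what their proteins do, with earlier results of these data known. All of them were among the 21004 genes of the table. Mammary luminal cells, which line the ducts and form the milk-producing alveoli, were compared with mammary tumor cells by sequencing RNA from single cells captured on microfluidic chips (Fluidigm C1, 1 cell per chamber, full-length cDNA). The table held cells of 11 mice, with 35 to 71 cells of each of 7 luminal mice and 30 to 51 cells of each of 4 mice with tumors.

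The luminal cells were DAPI-, CD24Hi, CD29Lo and mGFP+ cells of females aged 3 to 4 months. Virgin mice (v) gave 3 sets of cells and mice on day 12.5 of pregnancy (p) gave 4. Luminal donors carried MMTV-Cre and ROSA mT/mG together with Brca1 fl/fl (Br), Trp53 fl/+ (53) or Brca1 fl/fl with Trp53 fl/+ (Br53). Tumor cells were DAPI- CD24+ cells of 4 tumors of about 1 cm across from mice with MMTV-Cre and Brca1 fl/fl (BrT1, BrT2) or with Trp53 fl/+ in addition (Br53T1, Br53T2). Every mouse carried MMTV-Cre, which acts in mammary epithelium, and there was no group without a floxed allele. The backgrounds of C57BL/6 and 129/Sv were mixed. Each mouse is 1 sample below, its cells having been added together, and pBrL was the 1 group with 2 mice (pBrL-1 and pBrL-2).

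Lactoferrin, the product of Ltf, and lipocalin 2, the product of Lcn2, keep iron from bacteria, the first by binding the metal and the second by binding bacterial siderophores. The polymeric immunoglobulin receptor, the product of Pigr, carries immunoglobulin A across the epithelium into milk, where a part of the receptor stays on the antibody. Wfdc18 encodes a small secreted protein with a whey acidic protein domain, the fold shared by many antiproteases of mucosal surfaces. Osteopontin, the product of Spp1, is a secreted phosphoprotein that binds integrins and CD44. Lactadherin, the product of Mfge8, coats milk fat globules and bridges dying cells to the integrins of the cells that engulf them.

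Promoter sequence is shown for the antimicrobial genes Ltf and Lcn2 and for Pigr, on which the comparisons below turn most. The stretches are the 250 bases before the annotated start, read 5′ to 3′ on the gene's own strand from RefSeq windows on GRCm38.p6. They lie at chr9:111019042-111019291 (plus strand) for Ltf, chr2:32387740-32387989 (minus strand) for Lcn2 and chr1:130826434-130826683 (plus strand) for Pigr. Capitals mark matches to TTNCNNAA, a C/EBP motif, on either strand: both matches in Ltf read so on the opposite strand and the match in Lcn2 on the strand shown.
Ltf: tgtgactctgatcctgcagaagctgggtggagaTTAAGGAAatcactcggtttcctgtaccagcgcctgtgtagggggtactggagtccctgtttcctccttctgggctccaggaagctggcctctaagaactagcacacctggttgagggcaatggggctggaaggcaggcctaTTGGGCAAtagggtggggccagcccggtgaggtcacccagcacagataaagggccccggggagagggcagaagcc
Lcn2: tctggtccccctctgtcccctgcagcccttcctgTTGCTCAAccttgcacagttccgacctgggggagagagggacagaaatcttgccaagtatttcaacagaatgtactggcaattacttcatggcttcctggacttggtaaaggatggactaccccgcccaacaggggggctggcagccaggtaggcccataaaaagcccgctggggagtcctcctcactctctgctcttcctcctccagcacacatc
Pigr: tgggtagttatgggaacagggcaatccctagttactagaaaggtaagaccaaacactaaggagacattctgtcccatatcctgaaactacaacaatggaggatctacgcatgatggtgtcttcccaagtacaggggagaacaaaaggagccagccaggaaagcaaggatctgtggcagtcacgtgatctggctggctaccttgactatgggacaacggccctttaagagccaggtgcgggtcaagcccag

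Windows of 250 bases were searched on both strands for this C/EBP motif, for the STAT motif TTCNNNGAA and for an NF-kB motif of GGGA and TCC with 3 free bases between them. The 6 genes had 7 windows, Spp1 having 2. The C/EBP motif was found in 4 of the 7 (Ltf, Lcn2, Mfge8 and the second of Spp1) and in 36.8% of all 32851 promoter windows. In Ltf the matches began 217 and 75 bases before the start, and in Lcn2 the match began 216 bases before it. The STAT motif, held by 7.02% of all windows, and the NF-kB motif, held by 3.86%, had no match in the windows of the 6 genes. These matches are letters in a window and no record of binding.

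The cells held 170209 to 3550564 reads each, and their sums per mouse were 40338926 to 115827852 reads. Tumors and chips were largely confounded, since 8 chips carried the 11 mice and a tumor shared a chip with luminal cells once (Br53T2 and pBrL-2 on chip SC6). Virgin and pregnant mice of 1 genotype shared a chip for Br53 (SC7) and for 53 (SC9). Epithelial identity was checked on 6 luminal markers, whose summed level was 7404 to 12856 CPM (reads of a gene per 1000000 reads of the mouse) in the luminal mice and 4319 to 6135 CPM in 3 tumors. BrT1 stood apart at 633 CPM with Krt19 and Cdh1 at 0, and its 5 fibroblast markers summed to 4489 CPM against 0.0200 to 94.7 CPM in the other tumors. Dcn gave 4356 CPM of that sum and was also read in virgin luminal mice (176 to 711 CPM), while Pdgfra was at 105 CPM, Col1a1 at 20.4 CPM and Lum at 0 in BrT1. Br53T2 stood apart in another way, with 7 basal markers summing to 3843 CPM (Acta2 2508 CPM, Krt14 643 CPM) against 0.922 to 230 CPM in the other tumors and 0 to 469 CPM in luminal mice. Its 5 hormone-sensing markers summed to 1422 CPM against 9.51 to 95.4 CPM in the other tumors. Of 7 neutrophil markers, S100a9 was at 0 in all 11 mice, while Elane and Mpo did not exceed 0.104 CPM. The summed neutrophil markers ran from 0.902 CPM in BrT2 to 79.7 CPM in p53L, nearly all of it S100a8 (79.5 CPM in p53L, 46.5 CPM in v53L), and their part in the levels of Ltf and Lcn2 was not tested. Hematopoietic cells had been depleted before the sorts.

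Per length of transcript, Wfdc18 was the leading gene of the set in luminal cells. On the scale of CPM per kilobase of exon (RPKM), its level was 13392 ± 5567 (SD, n = 7 luminal mice). Spp1 followed at 3433 ± 4313 RPKM and Lcn2 at 1417 ± 945 RPKM, and these neighbours did not differ beyond their spread. Mfge8 stood at 263 ± 127 RPKM. Ltf at 46.4 ± 41.6 RPKM and Pigr at 39.5 ± 31.8 RPKM were the lowest and did not differ beyond their spread. The leading gene was Wfdc18 in 7 of the 11 mice, Spp1 in 3 (v53L, BrT1 and Br53T1) and Lcn2 in 1 (BrT2). Reads of the 6 genes together made up 1.44% to 3.34% of a luminal mouse's reads and 0.665% to 2.67% of a tumor's.

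Pigr was low in virgin luminal cells, higher in every pregnant mouse and nearly absent from 3 of the 4 tumors. Its level was 40.7 CPM in vBrL, 30.9 CPM in vBr53L and 25.4 CPM in v53L. It was 248 CPM in pBrL-1, 187 CPM in pBrL-2, 349 CPM in pBr53L and 231 CPM in p53L. The virgin and pregnant mice did not overlap. In the tumors it was 0.0110 CPM in BrT1, 0.982 CPM in BrT2, 35.3 CPM in Br53T1 and 2.25 CPM in Br53T2. Br53T1 thus reached the virgin range, with 62.3% of its Pigr reads in 1 cell. Pigr belongs to a list of luminal genes that the study picked on these very cells together with its bulk RNA sequencing. The difference of Pigr between luminal cells and tumors is therefore not independent evidence here.

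The share of cells with a Pigr read differed between the stages in the same direction. After each cell was thinned to 100000 reads, 25.7%, 25.6% and 17.5% of the cells of vBrL, vBr53L and v53L held a read. The share was 69% in pBrL-1 (95% exact binomial interval 56.9 to 79.5), 68.4% in pBrL-2 (51.3 to 82.5), 90.6% in pBr53L (79.3 to 96.9) and 88.9% in p53L (73.9 to 96.9). The highest virgin interval ended at 43.3%, under the lowest bound of the pregnant mice. Without thinning the shares were 22.5% to 35.9% in virgin and 71.1% to 100% in pregnant mice. No cell of BrT1 held a read after thinning, which allows a share of up to 6.38% (3 of its 47 cells). These intervals cover counting error only.

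Wfdc18 was abundant in most luminal mice and lower in all 4 tumors than in all 5 Brca1-deficient luminal mice. It stood at 11602 CPM in vBrL, 20540.2 CPM in vBr53L and 3079.7 CPM in v53L. The pregnant mice lay close together at 18502.5 CPM (pBrL-1), 19255 CPM (pBrL-2), 18476 CPM (pBr53L) and 22908 CPM (p53L). The virgin 53 mouse was the low one among the luminal mice. The tumors held 1.62 CPM (BrT1), 1279.8 CPM (BrT2), 1527 CPM (Br53T1) and 4632 CPM (Br53T2). All reads in BrT1 came from 1 of its 47 cells, and in Br53T2 the median cell had 153 CPM while the highest had 46748 CPM.

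Lcn2 was read in most luminal cells and ranged from 1 read to the highest level of the series among the tumors. It stood at 1789 CPM in vBrL, 7817 CPM in vBr53L and 6692 CPM in v53L. The pregnant mice held 2374 CPM (pBrL-1), 1717 CPM (pBrL-2), 2654 CPM (pBr53L) and 2982 CPM (p53L). The virgin range enclosed 3 of the 4 pregnant values. The tumors held 0.0110 CPM in BrT1, 14692 CPM in BrT2, 4542 CPM in Br53T1 and 1373 CPM in Br53T2. In BrT2 every cell held Lcn2 after thinning (37 of 37, exact interval 90.5% to 100%), with a median of 12626 CPM per cell.

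Ltf was read in at most 45.3% of the thinned cells of a mouse. It stood at 2.28 CPM in vBrL, 395 CPM in vBr53L and 109.6 CPM in v53L. It was 93.5 CPM in pBrL-1, 93.7 CPM in pBrL-2, 329 CPM in pBr53L and 97.3 CPM in p53L. Both Br53 luminal mice were above the other luminal mice, and vBrL, with all its Ltf reads in 1 cell, was the lowest. BrT1 and BrT2 had no Ltf read, whereas Br53T1 had 46 CPM and Br53T2 had 33.2 CPM. Single cells gave 80.6% and 68.5% of the Ltf reads of these 2 Br53 tumors. After thinning, 2.86% to 45.3% of the cells of a luminal mouse held a Ltf read, and 0 of 47 and 0 of 37 cells of BrT1 and BrT2, which allows shares of up to 6.38% and 8.11% (3 cells each). Without thinning, 79.5% of the cells of vBr53L and 54.7% of those of pBr53L held a read, against 2.86% to 39.5% in the other luminal mice.

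Spp1 differed widely among virgin mice and among tumors. It stood at 91.5 CPM in vBrL, 2375 CPM in vBr53L and 21352 CPM in v53L, a range of 233-fold. The pregnant mice lay within a range of 1.78-fold, at 3662 CPM (pBrL-1), 3591 CPM (pBrL-2), 3064 CPM (pBr53L) and 5468 CPM (p53L). In 3 tumors Spp1 was above the pregnant range, with 6417 CPM in BrT1, 5715 CPM in BrT2 and 12733 CPM in Br53T1. Br53T2 held 11.9 CPM. BrT1 and BrT2 reached like sums in different ways, for the median cell held 5892 CPM in BrT1 and 162 CPM in BrT2, where 1 cell gave 72.4% of the reads. The 9 macrophage markers, a cell type known for osteopontin, summed to 2.25 CPM in BrT1, 1.4 CPM in BrT2, 32.2 CPM in Br53T1 and 58.3 CPM in Br53T2. The part of macrophages, which are hematopoietic cells, in the Spp1 level was not tested. At the Spp1 locus a gene model, Gm42793, overlaps on the same strand and has no row in the table, so its reads may be part of the Spp1 count.

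Mfge8 spanned the smallest range from the lowest to the highest luminal mouse. It stood at 838 CPM in vBrL, 1927 CPM in vBr53L and 2191 CPM in v53L, and at 1012 CPM (pBrL-1), 789 CPM (pBrL-2), 1216 CPM (pBr53L) and 669 CPM (p53L) in pregnant mice. That range was 3.28-fold, against 4.55-fold for Lcn2, the next smallest. The tumors held 379 CPM (BrT1), 4993 CPM (BrT2), 2836 CPM (Br53T1) and 600.3 CPM (Br53T2), on both sides of the luminal range. It was also the gene of the set kept by BrT1 next to Spp1, with a read in 91.5% of its thinned cells.

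**Figure D1:**
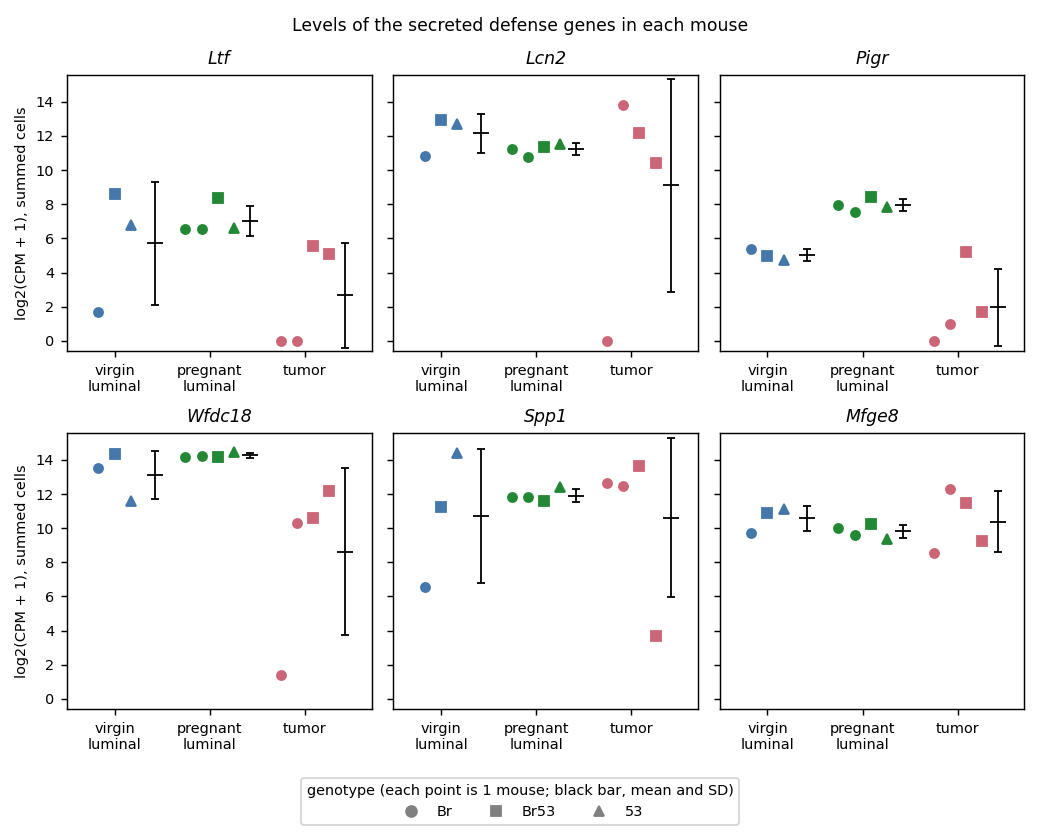
Level of each of the 6 genes in each mouse, as log2(CPM + 1) of the summed cells (vertical axis), for virgin luminal (3 mice), pregnant luminal (4 mice) and tumor (4 mice) samples. Marker shape gives the genotype, and the black bar gives the mean with the SD over mice. Pigr is at 25.4 to 40.7 CPM in virgin and 187 to 349 CPM in pregnant mice, and BrT1 sits near 0 for all but Spp1 and Mfge8.

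**Figure D2:**
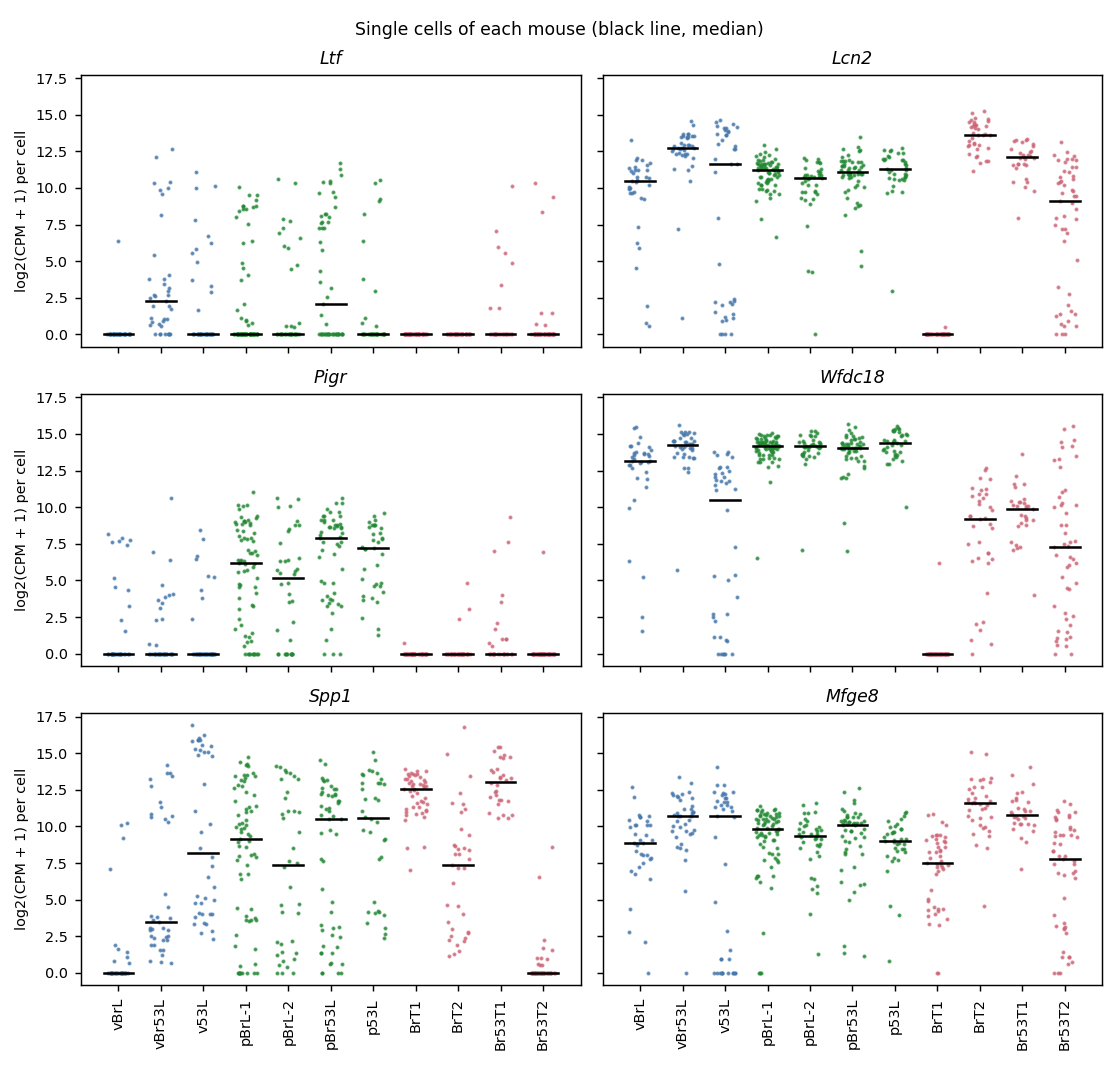
Level of each gene in single cells, as log2(CPM + 1) (vertical axis), for each of the 11 mice (horizontal axis). Points are cells and black lines are medians. In the pregnant mice the median cell holds 1609.9 to 2449.6 CPM of Lcn2 and 16999 to 21706 CPM of Wfdc18, and in pBr53L the cells run from 24.4 to 11135 CPM of Lcn2 and from 0 to 23518 CPM of Spp1.

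Tumors were compared with Brca1-deficient luminal cells to ask how the secreted defense genes differ between tumors and luminal cells of the same genotypes, Br and Br53. In this test (edgeR's quasi-likelihood test with Benjamini-Hochberg adjustment over 12978 genes, 4 tumors against 5 luminal mice), none of the 6 genes passed an adjusted p of 0.05, and 0.609% of all genes did. At an unadjusted p under 0.05, 2 of the 6 passed (Pigr and Wfdc18), against 13.8% of all genes. DESeq2 called Pigr alone of the 6, at an adjusted p of 0.00936, against 6.23% of all genes.

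Pigr was lower in tumors, at 9.64 ± 17.1 CPM (SD, n = 4) against 171 ± 136 CPM (SD, n = 5). Its log2 fold change was -4.34 ± 1.60 (SE, edgeR adjusted p = 0.254), and limma on the mean CPM over cells gave an adjusted p of 0.0154 (2.71% of all genes called). Without Br53T1 it was -7.44 (edgeR adjusted p = 0.0908), and without BrT1 it was -3.92 (adjusted p = 0.232). Of the 5 luminal mice 3 were pregnant, and the log2 fold change was -4.95 (edgeR adjusted p = 0.255) against these and -2.10 (adjusted p = 0.739) against the virgin ones. Wfdc18 stood at 1860 ± 1965 CPM in tumors and 17675 ± 3497 CPM in luminal mice. Its log2 fold change was -3.39 ± 1.27 (SE, edgeR adjusted p = 0.260), and -2.98 without BrT1, where the call passed (edgeR adjusted p = 0.0498). The 2 arms of Wfdc18 did not overlap, which held for 2.51% of all genes in this direction. DESeq2 gave no adjusted p for Wfdc18, and limma on the mean CPM over cells gave -5.54 (adjusted p = 0.0829). With 1 mouse left out Wfdc18 ran from -4.33 to -2.98.

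The other members gave smaller log2 fold changes or larger errors. Ltf gave -3.42 ± 1.96 (SE, edgeR adjusted p = 0.486), Lcn2 0.61 ± 1.56 (adjusted p = 0.918), Spp1 1.14 ± 1.21 (adjusted p = 0.731) and Mfge8 0.85 ± 0.70 (adjusted p = 0.639). The sign of Lcn2 rested on BrT2, without which it was -0.95, and that of Mfge8 also did, at -0.08 without BrT2. With 1 mouse left out Spp1 ran from 0.56 to 1.55. Without BrT1 the values were -3.004 for Ltf, 1.02 for Lcn2, 1.15 for Spp1 and 1.21 for Mfge8, with no call in edgeR. Over the set, 3 genes were higher and 3 lower in tumors, with a median log2 fold change of -1.39 against 0.06 over all genes. With limma on the mean CPM over cells, 1 was higher (Mfge8) and 5 lower. On chip SC6, where a Br53 tumor and a pregnant Br mouse were processed together, all 6 genes were lower in the tumor, from a log2 difference of -0.32 for Lcn2 to -8.12 for Spp1. That is 1 mouse against 1 mouse and has no test. The 2 mice also differed in basal markers (3843 CPM in Br53T2, 222 CPM in pBrL-2) and in hormone-sensing markers (1422 and 232 CPM), whose part in these differences was not tested.

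Pregnant and virgin luminal mice were compared to ask which defense genes differ between the glands at rest and at mid-pregnancy. In edgeR, with genotype as a covariate and 13709 genes tested, none of the 6 genes passed an adjusted p of 0.05, and 0.0146% of all genes did. Pigr came closest, ranked 8 by p (edgeR p = 3.75e-05), and it was the 1 gene of the 6 with an unadjusted p under 0.05, as 8.99% of all genes had. It stood at 254 ± 68.1 CPM (SD, n = 4) in pregnant and 32.4 ± 7.76 CPM (SD, n = 3) in virgin mice, a log2 fold change of 3.00 ± 0.37 (SE, edgeR adjusted p = 0.0637). The direction was the same in all 3 genotypes, with log2 differences of 2.38 for Br, 3.45 for Br53 and 3.13 for 53, the Br53 and 53 pairs each within 1 chip. Pigr was the 1 gene of the set whose arms did not overlap, as 6.11% of all genes did in this direction.

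Whether Pigr was called depended on the method. DESeq2 gave an adjusted p of 3.23e-12 (7.62% of all genes called) and limma on the mean CPM over cells gave 0.0139 (0.204% called). The edgeR adjusted p was 0.0259 without v53L and 0.0368 without p53L, and 0.0635 to 0.193 (without pBrL-1) with any other mouse left out. It was 0.0170 with no genotype covariate and 5.29e-08 with no filter on low counts. It was 0.433 at a log2 fold change of 2.31 when cells with more hormone-sensing than progenitor markers were left out, a choice made after the data were seen. With chip as a block in the 4 mice of SC7 and SC9, also chosen then, it was 0.0799 at a log2 fold change of 3.42. Across the 17 alternatives with a test, Pigr was called in 6 and higher in pregnancy in all.

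The other 5 genes of the set gave no call. Wfdc18 gave a log2 fold change of 1.09 ± 0.53 (SE, edgeR adjusted p = 0.601), Ltf 1.29 ± 1.14 (adjusted p = 0.770), Spp1 0.94 ± 1.35 (adjusted p = 0.875), Lcn2 -0.73 ± 0.37 (adjusted p = 0.614) and Mfge8 -0.64 ± 0.36 (adjusted p = 0.630). Lcn2 was lower in pregnancy on both chips that held both stages, by log2 differences of -1.56 on SC7 and -1.17 on SC9. Mfge8 was also lower on both, at -0.66 and -1.71. In Br, on separate chips, the differences were 0.17 for Lcn2 and 0.09 for Mfge8. With 1 mouse left out Wfdc18 ran from 0.34 (without v53L or p53L) to 1.60 (without vBr53L or pBr53L), Lcn2 from -1.31 (without vBrL) to -0.36 (without vBr53L or pBr53L) and Mfge8 from -1.14 (without vBrL) to -0.22 (without v53L or p53L), none of them called. Ltf and Spp1 took their sign from vBrL, the lowest virgin mouse for both, and were -0.16 and -0.75 without it. Over the 6 genes the median log2 fold change was 1.02, against 0.14 over all genes.

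**Figure D3:**
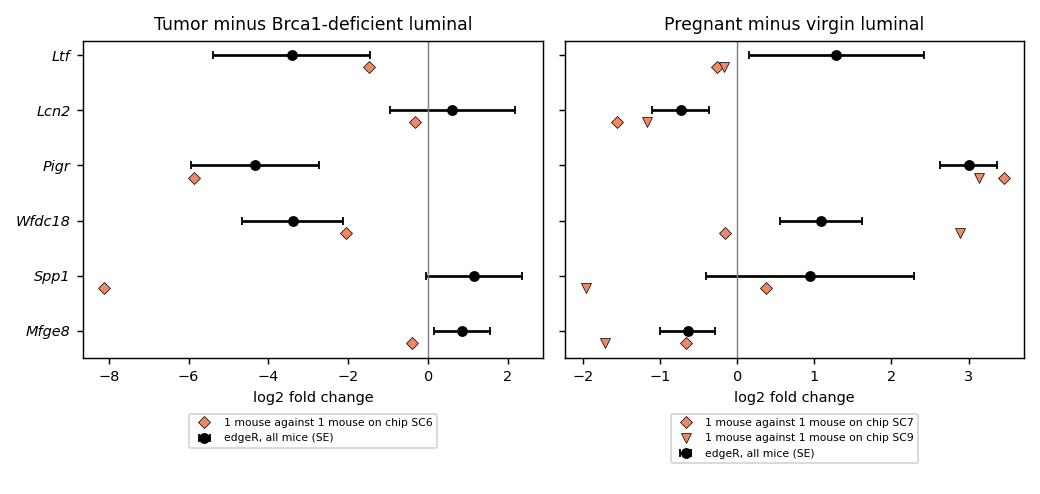
Log2 fold change of each gene (horizontal axis) between tumors and Brca1-deficient luminal mice (left) and between pregnant and virgin luminal mice (right). Black points with bars are edgeR estimates with their SE, and coloured symbols are differences between 2 mice on 1 chip, which have no error. Pigr is at -4.34 on the left and 3.00 on the right, with each chip value on the same side of 0.

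Genotype was compared within luminal cells and within tumors. For Br53 against 53 luminal mice (2 against 2, with stage as a covariate), none of the 6 genes was called by edgeR and 0% of all genes were, while an unadjusted p under 0.05 was reached by none of the 6 and by 4.97% of all genes. DESeq2 called 4.25% of all genes. Ltf was higher in Br53 without overlap (log2 fold change 1.71 ± 1.14, SE, edgeR adjusted p = 0.867) and Spp1 lower (-2.70 ± 1.36, adjusted p = 0.867), while 20.1% of all genes were higher and 11% lower without overlap. These signs rested on vBr53L for Ltf, which gave -0.44 without it, and on v53L for Spp1, which gave 0.83 without it. Other edgeR settings called Spp1 with no filter on low counts (adjusted p = 0.0068) and Wfdc18 without p53L (2.44, adjusted p = 0.0334). Both Br53 mice were on chip SC7 and both 53 mice on SC9, so genotype and chip cannot be told apart.

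For Br53 against Br luminal mice (2 against 3), all 6 genes had positive log2 fold changes and none was called by edgeR (0% of all genes called, DESeq2 1.15%). Ltf gave 3.38 ± 1.22 (SE, edgeR p = 0.0238, adjusted p = 1) and Lcn2 1.15 ± 0.43 (p = 0.0294, adjusted p = 1), the 2 genes with an unadjusted p under 0.05, as 2.95% of all genes had. With no filter on low counts edgeR called Ltf (adjusted p = 0.00110). With 1 mouse left out Ltf ran from 1.94 (without vBrL) to 5.39 (without pBr53L) and Lcn2 from 0.58 to 1.77. Pigr, Wfdc18 and Spp1 did not keep their sign with 1 mouse left out, at lowest values of -0.13, -0.31 and -0.61. Ltf, Lcn2 and Mfge8 did not overlap between the genotypes, as 8.24% of all genes did in this direction. Here too genotype and chip cannot be told apart, since the Br mice were on chips other than SC7.

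For Br53 against Br tumors (2 against 2), none was called by edgeR (0% of all genes called, DESeq2 2.34%). Ltf had no read in either Br tumor, so that its mean of 39.6 CPM in the Br53 tumors was at least 1854-fold higher than the level of 3 reads over both Br tumors (edgeR adjusted p = 0.882). It was called by DESeq2 (adjusted p = 1.30e-10) and by edgeR with no filter (1.99e-06), without BrT1 (0.0467) and without BrT2 (0.0130), in 4 of 11 alternatives. Ltf was the gene of the set with an unadjusted p under 0.05, as 3.98% of all genes had. Limma on the mean CPM over cells did not call Ltf (adjusted p = 0.999). After thinning, 5 of 30 cells of Br53T1 and 3 of 51 cells of Br53T2 held a Ltf read. Single cells gave 80.6% of the Ltf reads of Br53T1 and 68.5% of those of Br53T2. Pigr gave 5.08 ± 2.64 (SE, adjusted p = 1.00) and Wfdc18 2.09 ± 2.21 (adjusted p = 1.00), and these and Ltf were higher without overlap, as 19% of all genes were. With 1 tumor left out Pigr ran from 1.99 (without Br53T1) to 10.55 (without BrT2). Wfdc18 ran from 1.09 (without BrT1 or Br53T2) to 10.89 without BrT2, where edgeR called it (adjusted p = 0.00766) and also Lcn2 (17.85, adjusted p = 0.00181). Lcn2, Spp1 and Mfge8 overlapped.

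Luminal cells hold a hormone-sensing type, marked by Esr1, Pgr, Prlr, Foxa1 and Cited1, and an alveolar progenitor type, marked by Kit, Elf5, Aldh1a3, Cd14 and Ehf. Cells with the higher mean log2(CPM + 1) over the first markers made up 9 of 35 cells in vBrL, 6 of 39 in vBr53L and 24 of 40 in v53L. In pregnant mice they were 0 of 71, 1 of 38, 1 of 53 and 2 of 36, in the order pBrL-1, pBrL-2, pBr53L and p53L. The stages therefore differed in these cells as well, and the part this had in the stage comparison was not tested. The fit was only repeated with these cells left out.

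Lcn2, Wfdc18, Mfge8 and Pigr were lower in hormone-sensing cells of all 3 virgin mice. As a difference of mean log2(CPM + 1), Lcn2 differed by -5.38 ± 3.54 (SD over 3 mice), Wfdc18 by -5.00 ± 2.68, Mfge8 by -4.18 ± 3.61 and Pigr by -1.32 ± 0.96, each in 3 of 3 mice. Spp1 (-3.07 ± 4.11) and Ltf (-1.07 ± 1.54) were lower in 2 of 3, vBrL being the exception for both. When cells were split by the number of markers with a read, Spp1 in vBrL took the other sign, at -0.19 in place of 1.33. For Lcn2, Wfdc18, Spp1 and Mfge8 the largest difference was in v53L, where the summed cells held 1312 CPM of Lcn2 in hormone-sensing cells and 14711 CPM in the others, and 621 CPM against 4529.8 CPM of Mfge8. No test was made over these 3 mice. The beta-casein gene Csn2, which is no member, had a difference of -6.00 ± 2.96 on the same scale.

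With hormone-sensing cells left out, a choice made after the data were seen, the Pigr levels of virgin and pregnant mice still did not overlap. The edgeR log2 fold change was 2.31 in place of 3.00, and Pigr was not called (adjusted p = 0.433). The virgin mice then held 52.7 CPM (vBrL), 36.1 CPM (vBr53L) and 58.3 CPM (v53L), and the pregnant mice 192 to 355 CPM. Wfdc18 in v53L was 6111 CPM without these cells, still the lowest of the luminal mice. Spp1 in v53L was 45374 CPM without them.

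**Figure D4:**
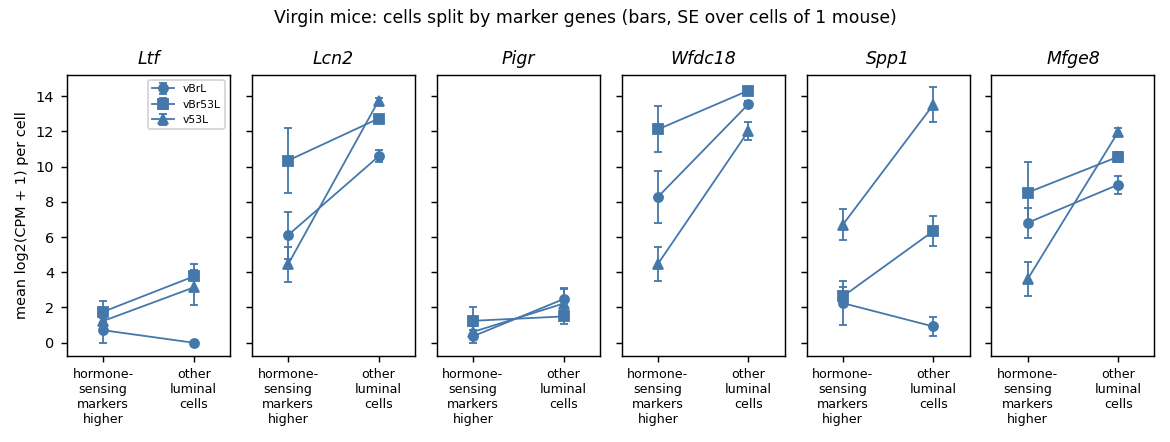
Mean log2(CPM + 1) per cell of each gene (vertical axis) in virgin mice, for cells with higher hormone-sensing markers and for the other luminal cells (horizontal axis). Each line is 1 mouse and bars are the SE over its cells. Lcn2, Wfdc18, Mfge8 and Pigr are lower in the hormone-sensing cells of all 3 mice, and Ltf and Spp1 are not in vBrL by this split.

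Across cells of 1 mouse, the Spearman correlation of Lcn2 with Wfdc18 had a median of 0.32 over 7 luminal mice (0.06 in pBrL-2 to 0.77 in v53L) and was 0.22 to 0.61 in the 3 tumors where both were measured in enough cells. The luminal medians of the other pairs ran from 0.05 (Spp1 with Mfge8) to 0.33 (Pigr with Spp1). The correlation with the summed casein and whey genes was positive in 7 of 7 luminal mice for Pigr, Spp1 and Lcn2. Its medians were 0.52 (0.05 to 0.59), 0.56 (0.0032 to 0.81) and 0.43 (0.23 to 0.83). It was positive in 6 of 7 for Wfdc18 (median 0.35) and Mfge8 (median 0.10), and in 5 of 6 for Ltf (median 0.23). In tumors with enough cells it ran from -0.53 to 0.20 for Spp1, -0.02 to 0.76 for Lcn2 and 0.36 to 0.75 for Wfdc18. Correlations of v53L were the highest for most pairs, and v53L was also the mouse with the most hormone-sensing cells. Cells of a mouse share a library preparation and differ in depth, so these values are descriptions.

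Over the 11 mice, the genes closest to each member in log2(CPM + 1) were found among 8729 genes. For Pigr they were Stk40 (r = 0.98), Xdh (r = 0.96), an enzyme that also coats the milk fat globule, and Gm2a (r = 0.95). For Wfdc18 they were Ogfrl1 (r = 0.98), Ceacam1 (r = 0.98) and Epb41l4b (r = 0.97), and for Lcn2 the epithelial genes Spint2 (r = 0.97) and Fxyd3 (r = 0.97). Ltf was nearest to Rpl36al (r = 0.92), Map3k6 (r = 0.92) and Tatdn2 (r = 0.91). Likeness was weaker for Spp1 (Tcf25, Jtb and Tm9sf1, r = 0.84 to 0.87) and Mfge8 (Cgnl1, Gt(ROSA)26Sor and Cd81, r = 0.86 to 0.90). Without BrT1, r was 0.56 for Lcn2 with Spint2 and 0.48 with Fxyd3, so that this likeness rested on BrT1. For the genes named for the other members r was 0.82 to 0.97 without it. The points share their stage and chip. Luminal donors carried ROSA mT/mG, and the part of that allele in the reads of Gt(ROSA)26Sor was not tested.

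The list of receptors and partners, which also holds relatives of these proteins and of their receptors, was the list with calls between tumors and luminal cells. Of 18 listed genes 14 were tested, and 3 were called higher in tumors (edgeR, 0.393% of all genes called higher) and 0 lower, with a median log2 fold change of 1.77 against 0.06 over all genes. Itgb5, an integrin subunit that binds osteopontin and lactadherin, rose from 13.3 ± 5.65 CPM (SD, n = 5) to 92.1 ± 26.1 CPM (SD, n = 4), a log2 fold change of 2.64 ± 0.42 (SE, edgeR adjusted p = 0.0226). Lrp1, an endocytic receptor that takes up lactoferrin among many ligands, rose from 1.08 ± 0.98 CPM to 49.6 ± 36.2 CPM, by 5.33 ± 0.93 (SE, adjusted p = 0.0379). Edil3, a secreted relative of lactadherin, had no read in any luminal mouse and 87.9, 13.4, 23.1 and 9.74 CPM in BrT1, BrT2, Br53T1 and Br53T2. Its tumor mean of 33.6 CPM was at least 4819-fold higher than 3 reads over the 5 Brca1-deficient luminal mice (edgeR adjusted p = 0.0213).

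These calls were near the threshold. The edgeR adjusted p of Lrp1 was 0.0832 without BrT1 and 0.0564 to 0.0860 without any one of vBrL, vBr53L, pBrL-1, pBrL-2, pBr53L or Br53T1. Itgb5 was at 0.0553 without BrT1 and at 0.0647 to 0.0743 without pBrL-1, pBrL-2 or pBr53L. Edil3 was at 0.0515 without pBrL-1 and at 0.0498 without BrT1. Against virgin mice alone none of the 3 was called (edgeR adjusted p = 0.302 to 0.420), and against pregnant mice alone Edil3 was (0.0442), while Itgb5 (0.0517) and Lrp1 (0.111) were not. The fibroblast markers were also highest in BrT1, the tumor with the highest level of Lrp1, Itgb5 and Edil3, and their part in these values was not tested. Axl, a receptor of the phagocytic family, gave 6.36 ± 1.26 (SE, edgeR adjusted p = 0.0517), Itga8 3.16 ± 0.86 (adjusted p = 0.130) and Cd44, the osteopontin receptor, 2.90 ± 0.90 (adjusted p = 0.184). Without BrT1, Axl gave 4.88 and Cd44 1.80, not called. Axl was called without vBrL (7.77, edgeR adjusted p = 0.0326), and Itga8, at 306 CPM in BrT2, was 1.63 without that tumor. DESeq2 called 7 of the list higher and 1 lower in tumors (6.23% of all genes called). In pregnancy against virgin 0 of 13 tested were called by edgeR and 3 lower by DESeq2 (7.62% of all genes called), and Cd44 stood at 51.9 ± 25.6 CPM (SD, n = 4) against 231 ± 165 CPM (SD, n = 3), -1.89 ± 0.40 (SE, adjusted p = 0.204), which passed without v53L or p53L (lowest edgeR adjusted p = 0.0282). Mertk, a receptor for the engulfment of dying cells, gave 2.10 ± 1.52 (SE, adjusted p = 0.719). With 1 mouse left out Mertk ran from 0.95 (without v53L or p53L) to 5.23. The integrin subunit gene Itgb3 gave -8.11 ± 5.33 (SE, adjusted p = 0.681), and -0.48 to -0.19 without any one of vBr53L, v53L, pBr53L or p53L.

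**Figure D5:**
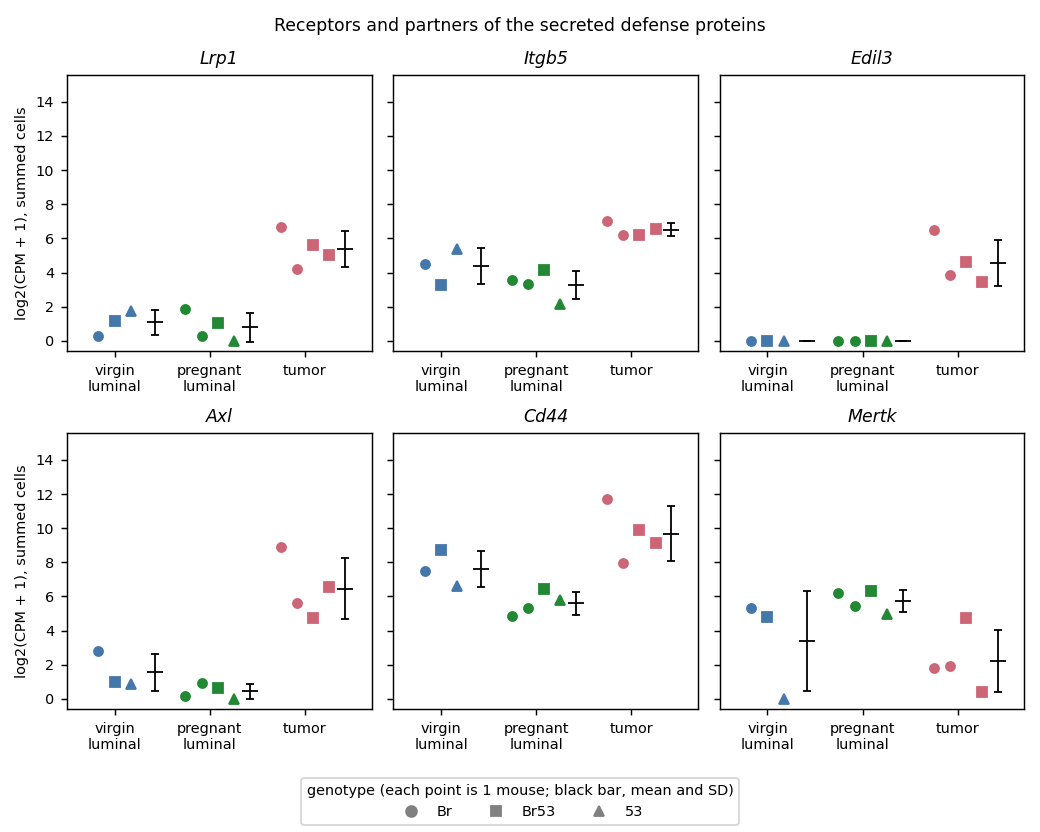
Level of genes from the list of receptors, partners and relatives of the secreted proteins in each mouse. The vertical axis is log2(CPM + 1) of the summed cells, for virgin luminal, pregnant luminal and tumor samples. Marker shape gives the genotype and the black bar the mean and SD over mice. Edil3 is at 0 in all 7 luminal mice, and Lrp1 and Itgb5 are higher in all 4 tumors than in all luminal mice.

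Among 34 further genes of milk and mucosal defense, edgeR called none in either main comparison. DESeq2 called 1 higher and 6 lower in tumors (6.23% of all genes called), and 4 higher and 8 lower in pregnancy (7.62% of all genes). In tumors 27 were tested, with a median log2 fold change of -0.84 against 0.06 over all genes, and 3 higher and 9 lower at an unadjusted p under 0.05 (13.8% of all genes). Saa1, an acute-phase protein, stood at 0.0729 ± 0.146 CPM (SD, n = 4) in tumors and 74.9 ± 142 CPM (SD, n = 5) in luminal mice (edgeR adjusted p = 0.0837), with 328 CPM in vBr53L and 0.792 to 23.3 CPM in the other 4, and the whey protein gene Wap at 0.292 ± 0.419 CPM against 183 ± 176 CPM (adjusted p = 0.0652). Wap passed without vBrL (edgeR adjusted p = 0.0446). It was at 0.635 CPM in vBrL and 26.3 CPM in vBr53L, against 216 to 431 CPM in pBrL-1, pBrL-2 and pBr53L. The tumor highest in Wap, BrT2, held 0.902 CPM. Saa1 and Wap are also in the study's own list of luminal genes. Lysozyme Lyz2 was at 0.146 ± 0.128 CPM against 52 ± 91.8 CPM (adjusted p = 0.213), its luminal mean coming from vBrL (47.6 CPM) and pBr53L (212 CPM), the mice with the highest macrophage marker sums (93.3 and 104 CPM).

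In pregnancy 30 of these genes were tested, with a median log2 fold change of -0.82 against 0.14 over all genes, and 4 higher and 6 lower at an unadjusted p under 0.05 (8.99% of all genes). Wfdc12, a relative of Wfdc18, stood at 4.29 ± 4.38 CPM (SD, n = 4) in pregnant and 506 ± 803 CPM (SD, n = 3) in virgin mice (edgeR adjusted p = 0.575), and the beta-defensin gene Defb1 at 0.411 ± 0.440 CPM against 27.7 ± 43.5 CPM (adjusted p = 0.657). Both virgin means came largely from vBrL, with 1432 CPM of Wfdc12 and 77.8 CPM of Defb1, and the log2 fold changes were 0.27 for Wfdc12 and -0.58 for Defb1 without it. Wfdc12 was called without v53L or p53L (lowest edgeR adjusted p = 0.0252). Lyz2 was at 53.1 ± 106 CPM against 15.9 ± 27.5 CPM, with an edgeR log2 fold change of the other sign (-6.04 ± 5.18, SE, adjusted p = 0.767).

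Of 22 genes for signals that act on milk and defense genes, all were tested and edgeR called none. DESeq2 called 1 higher and 1 lower in tumors (6.23% of all genes called), and 2 higher and 3 lower in pregnancy (7.62% of all genes). In tumors the alveolar transcription factor Elf5 stood at 26.7 ± 32.4 CPM (SD, n = 4) against 507 ± 429 CPM (SD, n = 5), with a log2 fold change of -4.40 ± 1.55 (SE, edgeR adjusted p = 0.232). Socs3, a feedback inhibitor of cytokine signals, gave 3.09 ± 1.02 (adjusted p = 0.203), and Cebpa -1.56 ± 1.45 (adjusted p = 0.686). With 1 mouse left out Socs3 was up to 4.53 (without vBr53L) and Cebpa down to -3.95 (without Br53T2), neither called. In pregnancy Elf5 gave 3.76 ± 0.71 (SE, edgeR adjusted p = 0.181), the prolactin receptor gene Prlr -2.82 ± 0.41 (adjusted p = 0.113) and the interleukin receptor gene Il1r1 -2.09 ± 0.56 (adjusted p = 0.336). Elf5 was called without vBr53L or pBr53L (lowest edgeR adjusted p = 0.00532), and Prlr without any one of vBr53L, v53L, pBr53L or p53L (lowest adjusted p = 0.0135). Elf5 and Prlr also served as markers in the split of luminal cells. In the 3 genotype comparisons edgeR called 0 genes of the defense, receptor and signal lists. DESeq2 called 3 of 30, 1 of 13 and 1 of 22 tested for Br53 against 53 (4.25% of all genes called). It called 1 of each list for Br53 against Br luminal mice (1.15%), and 3 of 24, 1 of 17 and 0 of 22 for the tumors (2.34%).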

How the data were processed

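Per the labels and the study's methods, luminal and tumor cells were sorted, captured on Fluidigm C1 chips and sequenced as full-length cDNA without molecular identifiers. The submitters' processing notes name sickle, Trim Galore 0.4.1, STAR 2.5.3a, Subread 1.5.3 and mm10. The annotation, the strand setting and any cell filter are not given in the sources used here, and the authors deposited raw read counts per gene and cell.

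Counts were summed per mouse (40338926 to 115827852 reads), since cells of 1 mouse are not replicates. Each deposited sample is 1 cell, labelled with its mouse. 0 cells had counts identical to another cell's. The study inspected chambers for doublets by microscope and no caller was run. edgeR 4.0.16 (filterByExpr, TMM, quasi-likelihood test, stage or genotype as a covariate in luminal fits, Benjamini-Hochberg over all genes tested, threshold 0.05) was the main test. DESeq2 1.42.0, limma 3.58.1 on log2(mean CPM + 1), RLE or library size scaling, no filter, cells with at least 2000 genes, left-out mice, other luminal arms, left-out casein genes and, added after seeing the data, left-out hormone-sensing cells and a chip block were alternatives, run in R 4.3.3. The fit was tested on simulated data. RPKM used exon lengths of the mouse GENCODE annotation. Promoter windows came from the RefSeq table. The 6 genes, the lists and the tests were chosen with earlier results of these data known. Named list genes were those called and, per list, otherwise the 3 with the largest absolute log2 fold change (at least 10 CPM on average in the higher arm). List genes are named for the tumor and pregnancy comparisons. The 3 genes most like each member had the highest Pearson correlation over 11 mice at a mean of at least 10 CPM, unnamed gene models left out, and 1 of these genes is not reported here.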

Additional observations from a re-analysis of the deposited data

Results flagged for a closer look

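Among 18 groups of values looked at (6 genes in luminal mice, pregnant mice and tumors, on the log2(CPM + 1) scale), 5 had a mouse far from the others by Dixon's ratio, where chance gives about 0.9 (5% of groups). In luminal mice vBrL was far below the rest for Ltf (ratio 0.701, 2.28 CPM) and for Spp1 (0.597, 91.5 CPM), and v53L was far below for Wfdc18 (0.661, 3079.7 CPM). Among pregnant mice pBr53L was far above for Ltf (0.969, 329 CPM). Among tumors Br53T2 was far below for Spp1 (0.884, 11.9 CPM).

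The difference between pregnant and virgin mice took opposite directions in different genotypes for 3 genes, counting a genotype only where every pregnant mouse was on the same side of the virgin one, and this was not tested. Lcn2 (0.17 in Br, -1.56 in Br53, -1.17 in 53) and Mfge8 (0.09, -0.66 and -1.71) were not counted, since the 2 pregnant Br mice lay on both sides of vBrL. For Ltf the log2 difference was 4.85 in Br, -0.26 in Br53 and -0.17 in 53. For Wfdc18 it was 0.70 in Br, -0.15 in Br53 and 2.89 in 53. For Spp1 it was 5.29 in Br, 0.37 in Br53 and -1.97 in 53. Each genotype had 1 virgin mouse.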

How the results depend on the processing

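Of 485 alternative values of the 6 genes over the 5 comparisons, 427 kept direction and side of the threshold, 17 passed it and 41 reversed, and the cause was not tested. By replicate number no paired analysis was possible because the numbers only name mice and the groups share fewer than 2 of them. Stage could be paired by chip in 4 mice (SC7 and SC9), a fit chosen after seeing the data that leaves 1 residual degree of freedom. The cell split by number of markers with a read could not be used for vBr53L, which had 4 hormone-sensing cells. Of 66 shares of cells with a read, 24 moved without thinning. Where an arm was left with 1 mouse, that mouse is assumed to vary like the others.

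The number of genes called in tumors (79) was 124 with library size scaling, 129 with no filter, 808 with DESeq2, 352 with limma, 159 without hormone-sensing cells, 213 against all 7 luminal mice, 44 against pregnant and 0 against virgin ones, and 11 to 94 with 1 mouse left out (50 leaving out BrT1, 44 leaving out BrT2, 29 leaving out pBrL-2, 19 leaving out pBr53L, 11 leaving out pBrL-1). For pregnancy (2) it was 366 with no filter, 1044 with DESeq2, 28 with limma, 0 without hormone-sensing cells, 17 with no covariate, 8 with the chip block and 0 to 41 with 1 mouse left out (0 without vBrL or pBrL-1, 5 without pBrL-2, 12 without pBr53L, 18 without vBr53L, 38 without v53L, 41 without p53L). For Br53 against 53, Br53 against Br luminal mice and Br53 against Br tumors (0 each in edgeR, with 681, 404 and 537 genes at an unadjusted p under 0.05) it was 80, 30 and 295 with no filter and 582, 158 and 315 with DESeq2, and with 1 mouse left out 0 to 123 (2 without v53L, 123 without p53L), 0 to 1 (1 without v53L or p53L) and 0 to 228 (52 without BrT1, 228 without BrT2).

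Log2 fold changes that took the other sign in tumors were Lcn2 (-2.29 with limma, -0.32 on chip SC6), Spp1 (-0.060 with limma, -0.13 against 7 luminal mice, -8.12 on SC6) and Mfge8 (-0.39 on SC6). In pregnancy they were Ltf (-0.11 with no covariate, -0.26 on SC7, -0.17 on SC9, -0.14 with the chip block), Wfdc18 (-0.15 on SC7), Spp1 (-1.03 with no covariate, -1.97 on SC9, -0.72 with the chip block), Wfdc12 (0.30 with the chip block) and Lyz2 (0.55 with limma, 1.82 with no covariate). For Br53 against 53 they were Lcn2 (0.067 with library size, 0.0021 with limma), Pigr (-0.28) and Mfge8 (-0.64), both without hormone-sensing cells. For tumors by genotype they were Lcn2 (4.40 with limma), Spp1 (-0.016 with RLE and with DESeq2, -3.89 with limma) and Mfge8 (0.014 with limma). With 1 mouse left out, ranges that crossed 0 were, in tumors, Lcn2 -0.95 to 1.21 and Mfge8 -0.081 to 1.21. In pregnancy they were Ltf -0.16 to 2.81, Spp1 -0.75 to 3.02, Wfdc12 -7.83 to 0.27 and Lyz2 -7.99 to 16.26. For Br53 against 53 they were Ltf -0.44 to 3.71, Lcn2 -0.71 to 0.44, Pigr -0.093 to 0.68, Wfdc18 -0.23 to 2.44, Spp1 -4.04 to 0.83 and Mfge8 -0.46 to 0.92. For Br53 against Br luminal mice they were Pigr -0.13 to 0.70, Wfdc18 -0.31 to 1.39 and Spp1 -0.61 to 2.12. For tumors by genotype they were Lcn2 -2.61 to 17.85, Spp1 -9.08 to 1.00 and Mfge8 -2.34 to 2.20.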
